A study of Mus musculus with 4 samples.

Results

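Transcripts of 10 genes that encode costimulatory or checkpoint ligands, or in one case a receptor of that group, were counted in single cells of injured mouse spinal cord. The genes were Cd80, Cd86, Cd40, Icosl, Tnfsf9, Cd274, Pdcd1lg2, Lgals9, Pvr and Nectin2. They were taken by symbol from the 53647 genes of the count tables, and each of the 10 symbols belonged to 1 gene identifier. The identifiers in the tables were ENSMUSG00000075122.6 (Cd80), ENSMUSG00000022901.14 (Cd86), ENSMUSG00000017652.17 (Cd40), ENSMUSG00000000732.10 (Icosl), ENSMUSG00000035678.9 (Tnfsf9), ENSMUSG00000016496.8 (Cd274), ENSMUSG00000016498.11 (Pdcd1lg2), ENSMUSG00000001123.16 (Lgals9), ENSMUSG00000040511.15 (Pvr) and ENSMUSG00000062300.15 (Nectin2). Over all cells kept, the sums ran from 1599 UMIs (unique molecular identifiers, each standing for 1 captured transcript) for Pdcd1lg2 to 270456 UMIs for Cd86.

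The tissue was spinal cord of aged C57BL/6J mice, an inbred strain, taken 28 days after spinal cord injury from a segment that held the lesion. One group of 2 libraries came from mice given an IgG antibody, and the other 2 libraries from mice given an antibody (Anti-CD8) to CD8, a surface protein of cytotoxic T cells. Both groups were aged and injured, and no uninjured or young cord entered the comparison. The sources used here give neither the antibodies' dose and timing nor how many mice stand behind a library, so a p-value below measures the spread between these libraries.

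T cells need a second signal beside the antigen receptor, and it comes from ligands on the cell that presents the antigen. CD80 and CD86 bind the activating receptor CD28 and the inhibitory receptor CTLA-4, ICOS ligand binds ICOS, and CD137 ligand (Tnfsf9) binds CD137. PD-L1 (Cd274) and PD-L2 (Pdcd1lg2) engage the inhibitory receptor PD-1. Galectin-9 (Lgals9) binds TIM-3 among other glycoproteins, and the adhesion molecules PVR and nectin-2 are shared by the activating receptor CD226 and the inhibitory receptor TIGIT. CD40 is itself a receptor: it sits on antigen-presenting cells and endothelium, receives CD40 ligand from helper T cells and signals through TRAF adaptors to NF-kB. In spinal cord the candidate presenters are microglia, the resident macrophages, together with macrophages of the meninges and vessels and dendritic cells that enter after injury.

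After filters, 6108 and 6290 cells of the IgG libraries and 7481 and 7816 cells of the Anti-CD8 libraries were kept, 27695 in all. The libraries held between 152457679 and 170539226 UMIs before filtering, and the median per kept cell ran from 17284 to 21950.5 UMIs. Pairs of libraries shared between 5 and 16 cell barcodes. Cells were grouped into classes by clustering without the 10 genes, and the short class names stand for cells that resemble that type by their markers (microglia-like, endothelial-like and so on). Microglia held 13944 cells, with all 10 microglial markers detected. The other myeloid classes were 4521 cells high in Spp1, 1149 phagocytes high in Fabp4, 162 macrophages high in Mrc1, 295 macrophages high in MHC class II genes and 157 dendritic cells. Clusters of 1071 and 245 cells with few UMIs (clusters 11 and 22) stayed unnamed. Library IgG 1 stood apart in interferon-response genes, with a summed marker level in microglia of 425.7 CPM (UMIs of a gene scaled by the UMI total of the class) against 91.2 to 131.1 CPM in the other libraries. Its interferon-responsive microglial cluster (cluster 14) held 460 of the 708 such cells. Among T cells, 271 of 328 and 489 of 703 cells in the IgG libraries had a CD8 UMI, against 150 of 417 and 89 of 258 in the Anti-CD8 libraries.

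Each of the 10 genes had its own distribution over cell classes, and a level below is the CPM of the gene in the summed counts of a class. Cd80, Cd86 and Cd40 were highest in dendritic cells or macrophages, Icosl and Nectin2 were highest in microglia, and Pdcd1lg2 was highest in NK and T cells. Lgals9 was at a similar level in endothelium and microglia, and Pvr was second highest in ependymal cells, the ciliated cells that line the central canal. Because UMIs were read from the 3′ end, levels are compared between classes for 1 gene and not between genes. The 10 genes took no part in clustering, but classes are clusters of the same cells, so differences between classes are given as values with no test. The heat map of levels holds the 14 classes with at least 20 cells in each library and NK cells (16 to 122 cells a library).

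**Figure D1:**
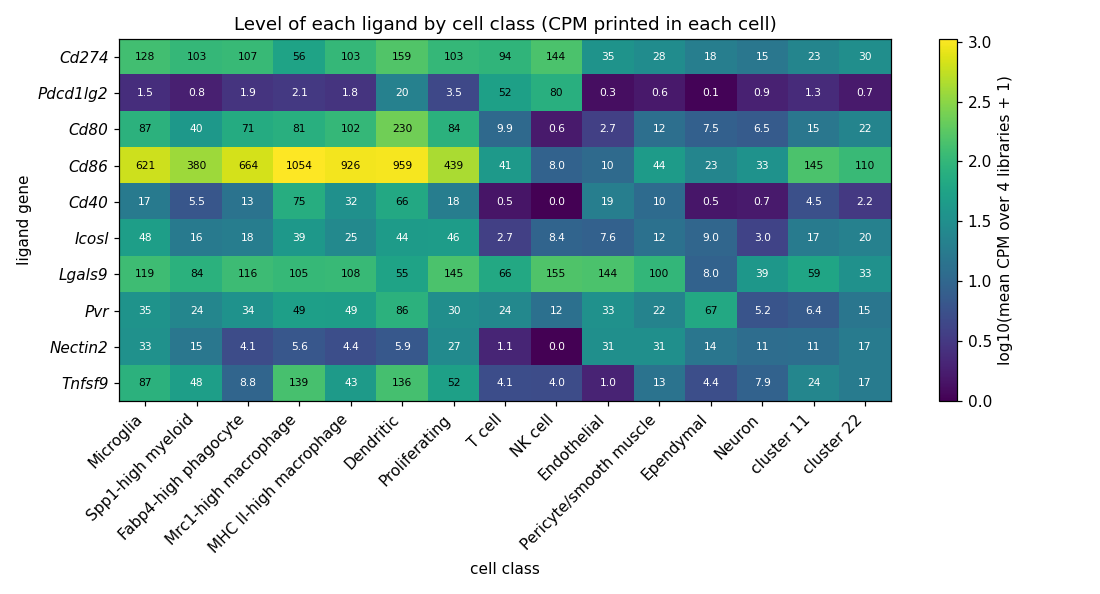
Mean level over the 4 libraries (CPM, printed in each tile, colour on a log10 scale of CPM + 1) of the 10 genes (rows) in 15 cell classes (columns). Cd86 lay between 380 and 1054 CPM in every myeloid class other than the unnamed clusters, while Pdcd1lg2 passed 10 CPM in dendritic, T and NK cells.

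Cd80 was highest in dendritic cells. Its level there was 199 and 274 CPM in the IgG libraries and 199 and 246 CPM in the Anti-CD8 libraries (230 ± 36.9, SD, n = 4). No library of any other class in the heat map reached that range. MHC II-high macrophages followed with 102 ± 15.3 CPM and microglia with 86.6 ± 9.96 CPM (SD, n = 4), which overlapped each other. Proliferating cells, most of them myeloid (83.9 CPM), Mrc1-high macrophages (80.7 CPM) and Fabp4-high phagocytes (70.9 CPM) lay within overlapping ranges below them, and Spp1-high cells formed a lower step at 39.9 ± 4.53 CPM. T cells were at 9.85 CPM, endothelium at 2.71 CPM and NK cells at 0.64 CPM. To compare shares of cells at 1 depth, every cell was thinned to 2000 UMIs, which left out 3 of 157 dendritic cells and 161 of 13944 microglia. A Cd80 UMI was then seen in 33.1% of dendritic cells (51 of 154 cells, exact binomial 95% interval 25.75 to 41.15) and in 15.1% of microglia (14.5 to 15.7), against 81.5% and 64.7% without thinning. In endothelium, which should lack Cd80, the share was 0.2395% after thinning and 2.80% without (median depths 15200 UMIs there, 17760 in dendritic cells and 19730 in microglia). Intervals and limits for shares cover counting error only.

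Cd86 was higher in every named myeloid class than outside the myeloid lineage. Mrc1-high macrophages held 879 and 1170 CPM in the IgG libraries and 1060 and 1108 CPM in the Anti-CD8 libraries (1054 ± 125, SD, n = 4). Dendritic cells (959 ± 81.0 CPM) and MHC II-high macrophages (926 ± 214 CPM) overlapped that range. Fabp4-high phagocytes (664 ± 66.0 CPM) overlapped microglia, in which Cd86 was at 586 and 647 CPM under IgG and 604 and 646 CPM under Anti-CD8. Microglia lay above proliferating cells (439 CPM) and Spp1-high cells (380 ± 25.3 CPM) without overlap. Outside the myeloid classes the level was 41.0 CPM in T cells, 10.2 CPM in endothelium and 8.04 CPM in NK cells. At 2000 UMIs a cell, 76.5% of Mrc1-high macrophages and 63.1% of microglia had a Cd86 UMI (96.3% and 97.9% unthinned, median depths 9432 and 19730 UMIs). The share in endothelium, which should lack the gene, was 1.32% (6.38% unthinned, median 15200 UMIs).

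Cd40, the receptor of the set, was led by Mrc1-high macrophages and dendritic cells. In Mrc1-high macrophages it was at 53.9 and 69.4 CPM in the IgG libraries and 85.5 and 92.9 CPM in the Anti-CD8 libraries (75.4 ± 17.4, SD, n = 4). Dendritic cells had 90.9 and 77.8 CPM under IgG and 35.9 and 59.9 CPM under Anti-CD8, a range that overlapped the macrophages. MHC II-high macrophages came next (32.3 ± 10.2 CPM). Endothelium, at 20.3 and 22.4 CPM (IgG) and 14.5 and 17.6 CPM (Anti-CD8), overlapped microglia (16.8 ± 2.22 CPM). Spp1-high cells were lower at 5.53 ± 0.441 CPM. T cells held 4 Cd40 UMIs in all 4 libraries together (0.486 CPM), and no NK cell had one. At 2000 UMIs, 11.7% of Mrc1-high macrophages, 3.47% of endothelial cells and 3.16% of microglia had a Cd40 UMI, against 0.184% of T cells (38.9%, 24.4%, 19.4% and 0.2345% unthinned).

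Icosl was highest in microglia by its mean. The level was 45.3 and 47.8 CPM in the IgG libraries and 49.1 and 51.0 CPM in the Anti-CD8 libraries, a spread of 2.40 (SD, n = 4) around 48.3 CPM. Proliferating cells (45.9 CPM), dendritic cells (44.4 ± 10.2 CPM) and Mrc1-high macrophages (39.4 ± 9.92 CPM) overlapped microglia. MHC II-high macrophages (25.4 CPM), Fabp4-high phagocytes (18.0 CPM) and Spp1-high cells (16.1 ± 1.34 CPM) were below the microglial range in every library. Endothelium had 7.58 CPM and T cells 2.73 CPM. The thinned share was 11.7% in dendritic cells and 9.02% in microglia (46.5% and 51.6% unthinned), against 0.491% in T cells.

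Tnfsf9, which encodes CD137 ligand, was led by Mrc1-high macrophages, dendritic cells and microglia. Mrc1-high macrophages held 143 and 116 CPM under IgG and 131 and 167 CPM under Anti-CD8 (139 ± 21.4, SD, n = 4). In microglia the level was 68.8 and 114 CPM in the IgG libraries and 67.0 and 100.2 CPM in the Anti-CD8 libraries, so both libraries numbered 2 were above both libraries numbered 1. Proliferating cells (51.7 CPM), Spp1-high cells (48.2 ± 7.97 CPM) and MHC II-high macrophages (43.2 ± 14.8 CPM) lay below microglia without overlap. Fabp4-high phagocytes were at 8.79 ± 2.23 CPM, and endothelium was at 0.995 CPM. Within the pericyte and smooth muscle class, Tnfsf9 was concentrated in a cluster of 98 cells (cluster 24), at 60.8 and 73.4 CPM (IgG) and 65.9 and 29.5 CPM (Anti-CD8). The 3 other clusters of that class had means of 5.03, 5.52 and 9.37 CPM. In cluster 24, 6 of 10 microglial markers were detected, summing to 287.4 and 814.5 CPM (IgG) and 701.0 and 95.84 CPM (Anti-CD8), with the lowest sum and the lowest Tnfsf9 level both in Anti-CD8 2, and their part in this level was not tested. The thinned share was 22.8% in Mrc1-high macrophages, 22.1% in dendritic cells and 9.95% in microglia, against 0.180% in endothelium (52.5%, 50.3%, 37.4% and 1.55% unthinned).

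Cd274 was spread over immune cells. Dendritic cells had 141 and 242.5 CPM in the IgG libraries and 118 and 135 CPM in the Anti-CD8 libraries (159 ± 56.5, SD, n = 4), and the single library IgG 2 set the upper end. NK cells (144 ± 23.3 CPM) and microglia (128 ± 8.64 CPM) overlapped dendritic cells. Microglia held 123 and 140 CPM under IgG and 121 and 130 CPM under Anti-CD8. Fabp4-high phagocytes, Spp1-high cells, MHC II-high macrophages and proliferating cells had means between 103 and 107 CPM, and T cells had 93.8 ± 8.29 CPM. Mrc1-high macrophages were lower, at 56.4 ± 24.6 CPM, although they had the highest means for Cd86, Cd40 and Tnfsf9. Endothelium was at 34.7 ± 7.40 CPM, ependymal cells at 18.4 CPM and neurons at 14.9 CPM. The thinned share was 26.6% in dendritic cells, 20.4% in microglia and 2.27% in neurons (61.8%, 70.5% and 16.45% unthinned).

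Pdcd1lg2 had its highest means in NK and T cells, followed by dendritic cells. T cells had 38.6 and 47.4 CPM in the IgG libraries and 72.3 and 47.7 CPM in the Anti-CD8 libraries (51.5 ± 14.5, SD, n = 4). NK cells had 36.3 and 78.9 CPM under IgG and 105 and 98.9 CPM under Anti-CD8, the first from 5 UMIs in 16 cells. Dendritic cells followed at 20.1 ± 11.2 CPM, below the T-cell range, and every other class of the heat map had a mean under 4 CPM. In microglia the level was 1.51 ± 0.104 CPM, from 98 to 124 UMIs a library. The thinned share was 17.7% in NK cells (95% interval 13.2 to 23.0) and 8.77% in T cells (7.44 to 10.25), against 0.312% in microglia and 0.0599% in endothelium (48.8%, 23.9%, 2.92% and 0.418% unthinned). T cells with a CD8 UMI had 28.9 and 39.8 CPM (IgG) and 77.5 and 20.5 CPM (Anti-CD8), and those without had 94.9 and 69.9 CPM (IgG) and 68.2 and 65.0 CPM (Anti-CD8). The level was thus higher in cells without a CD8 UMI in 3 of the 4 libraries, the exception being Anti-CD8 1.

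Lgals9 reached similar levels in endothelium and in several immune classes. Endothelium had 171 and 129 CPM under IgG and 135 and 143 CPM under Anti-CD8 (144 ± 18.6, SD, n = 4), and microglia had 126 and 115 CPM (IgG) and 120 and 116 CPM (Anti-CD8). Endothelial levels were above microglial levels in every library, and the ranges did not overlap. NK cells (155 ± 34.1 CPM) and proliferating cells (145 ± 25.3 CPM) had the highest means and overlapped endothelium. Fabp4-high phagocytes and both macrophage classes had means of 105 to 116 CPM, and Spp1-high cells had 83.8 ± 2.14 CPM. Dendritic cells were at 43.1 and 66.1 CPM (IgG) and 50.2 and 61.3 CPM (Anti-CD8), below microglia in 4 of 4 libraries. Ependymal cells were lowest at 7.97 ± 0.261 CPM. The thinned share was 23.2% in endothelium, 21.9% in microglia and 1.53% in ependymal cells (79.5%, 80.7% and 13.5% unthinned).

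Pvr had its highest mean in dendritic cells and its second highest outside the immune system. Dendritic cells had 64.6 and 109 CPM in the IgG libraries and 80.4 and 89.1 CPM in the Anti-CD8 libraries (85.7 ± 18.5, SD, n = 4). Ependymal cells had 69.4 and 57.6 CPM under IgG and 68.4 and 70.7 CPM under Anti-CD8, which overlapped dendritic cells and lay above both macrophage means (49.4 and 48.5 CPM). Microglia (34.8 ± 2.57 CPM), Fabp4-high phagocytes (34.1 CPM) and endothelium (32.7 ± 1.75 CPM) shared a range. The thinned share was 16.9% in dendritic cells and 12.5% in ependymal cells, against 1.24% in neurons (68.8%, 58.1% and 7.76% unthinned).

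Nectin2 had its highest means in microglia and the vessel wall and was low in most other immune classes. Microglia had 30.8 and 31.8 CPM under IgG and 35.98 and 34.0 CPM under Anti-CD8, and endothelium had 32.2 and 29.5 CPM (IgG) and 35.2 and 27.7 CPM (Anti-CD8). These ranges overlapped each other and that of pericytes and smooth muscle (31.0 ± 3.92 CPM). Clusters 17 and 18 of the latter class also carried endothelial markers. The summed endothelial markers of the class were 10550 to 11170 CPM, against 19520 to 20210 CPM in endothelium, and their part in its levels was not tested. Cluster 24 of that class, with endothelial markers summing to at most 1290 CPM, held Nectin2 at 33.1 ± 8.02 CPM. It had 25 and 27 cells in the IgG libraries and 29 and 17 in the Anti-CD8 libraries. The cluster also carried the microglial markers described for Tnfsf9, and their part in its Nectin2 level was not tested. Proliferating cells (27.2 ± 6.69 CPM) also overlapped microglia, and Spp1-high cells were at 14.99 ± 0.730 CPM. Dendritic cells, both macrophage classes and Fabp4-high phagocytes had means between 4.10 and 5.87 CPM, so microglia stood 8.08-fold above the Fabp4-high cells by their means. T cells were at 1.07 CPM. None of 256 NK cells had a Nectin2 UMI, which at 3 counts of the total allows a share of cells with a UMI of up to 1.17%. After thinning, 6.62% of microglia and 5.81% of endothelial cells had one, against 0.245% of T cells (42.9%, 35.0% and 0.586% unthinned).

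Taken as whole classes, Spp1-high cells had lower levels of all 10 genes than microglia. Spp1-high cells carry osteopontin and lipid-handling genes and still had 8 of 10 microglial markers detected, with a summed level of 2886 to 3252 CPM against 4044 to 4519 CPM in microglia. For each of the 10 genes the microglial level was the higher one in 4 of 4 libraries, and the ranges did not overlap. The ratio of means was 3.03 for Cd40, 2.999 for Icosl, 2.21 for Nectin2, 2.17 for Cd80, 1.83 for Pdcd1lg2, 1.81 for Tnfsf9, 1.63 for Cd86, 1.47 for Pvr, 1.42 for Lgals9 and 1.24 for Cd274. The median depth was 29690 UMIs in Spp1-high cells and 19730 in microglia. In cells thinned to 2000 UMIs, the mean number of the 10 genes detected in a cell was 1.496 and 1.605 (IgG) and 1.53 and 1.60 (Anti-CD8) in microglia. It lay between 1.06 and 1.13 in Spp1-high cells, between 1.91 and 2.43 in dendritic cells, and between 0.469 and 0.499 in endothelium.

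Within the myeloid cells the 10 genes separated states further. Microglia fell into 8 clusters, and the Spp1-high cells into clusters 2 and 4. The contrast between the 2 classes did not hold for every cluster. Microglial cluster 5 had lower means than cluster 2 for all genes except Pdcd1lg2 and Lgals9. Cd274, for example, was at 69.4 CPM in cluster 5 and 120 CPM in cluster 2, and Lgals9 at 111 and 74.2 CPM. Tnfsf9 was the most uneven: cluster 3 had 160 and 227 CPM in the IgG libraries and 138 and 201 CPM in the Anti-CD8 libraries, while cluster 5 had a mean of 8.77 CPM. Clusters 7 and 12 were at 134 CPM each. These 3 Tnfsf9-high clusters made up 24.5% and 39.9% of microglia in the IgG libraries and 31.5% and 43.6% in the Anti-CD8 libraries. The libraries numbered 2 thus had more such cells, and they also had the higher Tnfsf9 level within cluster 3.

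Cluster 12 had the highest mean of these 10 clusters for 5 other genes. Means in cluster 12 were 197 CPM for Cd274, 783 CPM for Cd86, 89.1 CPM for Icosl, 53.0 CPM for Nectin2 and 31.6 CPM for Cd40, the last being level with cluster 14 (31.4 CPM). Cluster 4 of the Spp1-high cells had 85.7 CPM for Cd274, 341 CPM for Cd86, 8.84 CPM for Icosl, 12.2 CPM for Nectin2 and 2.45 CPM for Cd40. For Cd274, clusters 5 and 8 were lower still (69.4 and 70.8 CPM). Cd80 was highest in cluster 7, at 107 and 117 CPM under IgG and 131 and 137 CPM under Anti-CD8, and lowest in cluster 4 at 28.4 CPM. Icosl fell in steps from cluster 12 over clusters 0 and 7 (67.1 and 66.5 CPM) to cluster 3 (39.5 CPM), which was the leading cluster for Tnfsf9, so the 2 genes did not rank the clusters alike.

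**Figure D2:**
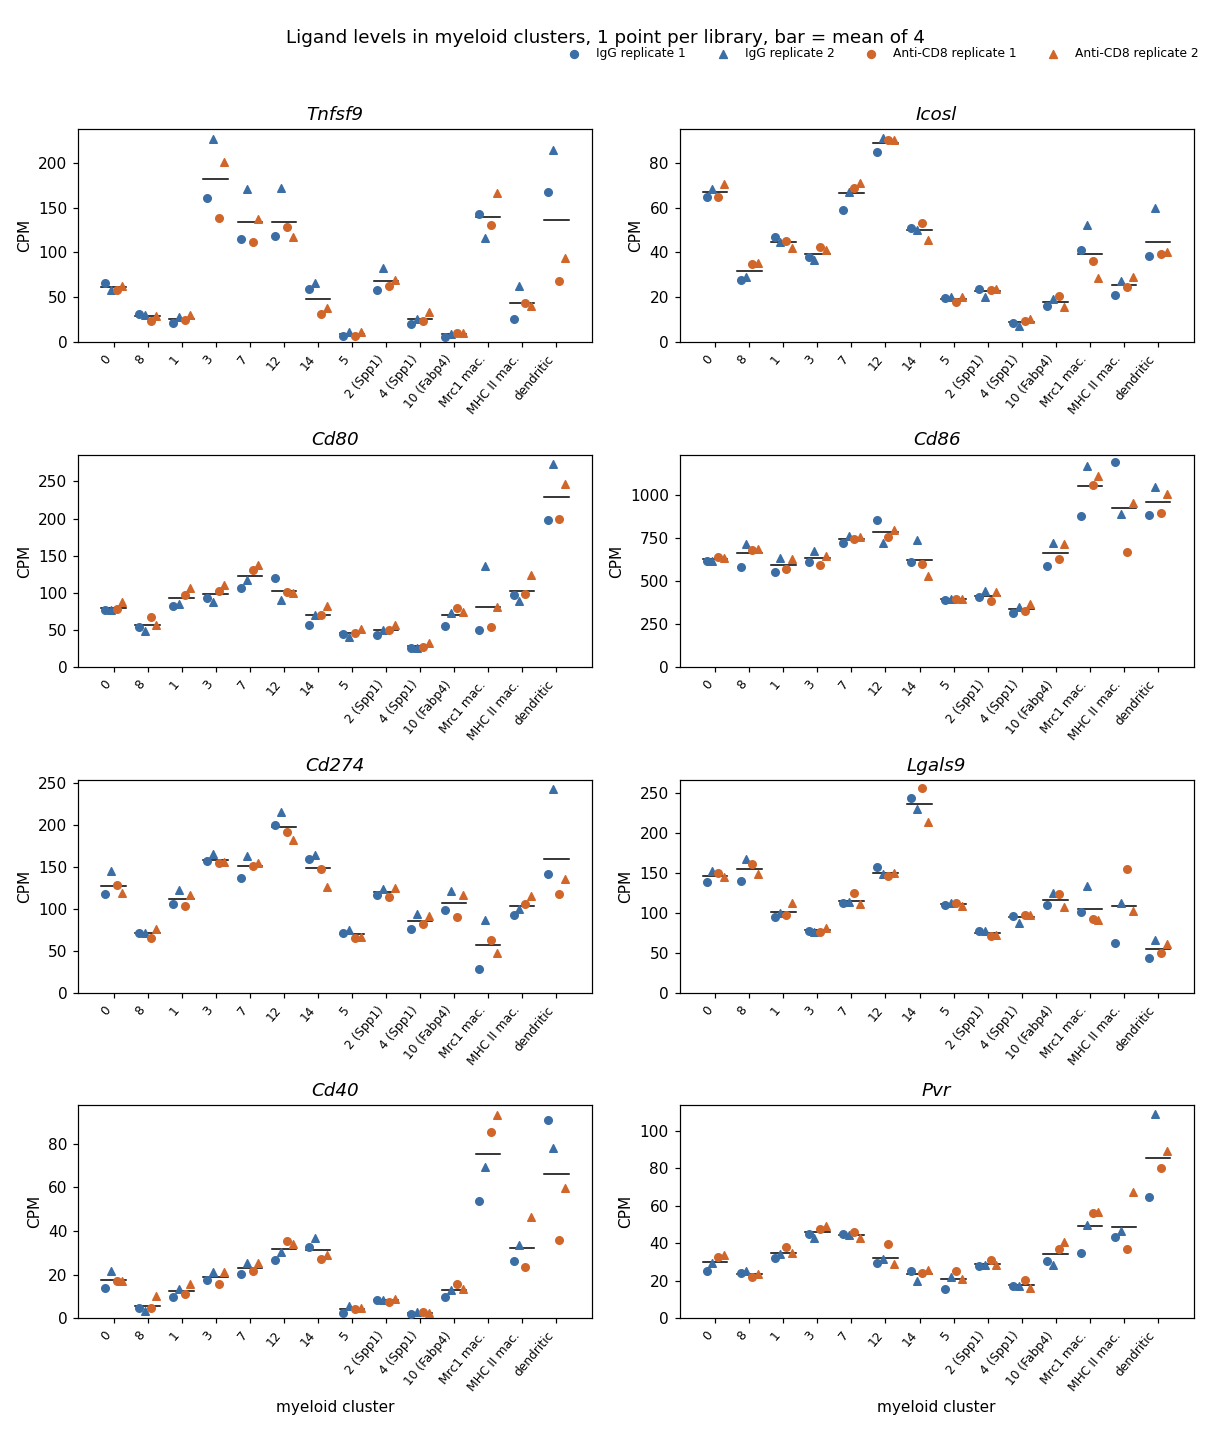
Level (CPM) of 8 genes in 14 myeloid clusters or classes, 1 point per library (blue, IgG; orange, Anti-CD8; circle, replicate 1; triangle, replicate 2) with a bar at the mean of 4. Tnfsf9 ran from under 10 CPM in clusters 5 and 10 to 182 CPM in cluster 3, and Lgals9 stood out in cluster 14.

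Interferon-responsive cells had more Lgals9 in 2 lineages. Microglial cluster 14 had Lgals9 at 244 and 230 CPM in the IgG libraries and 255 and 214 CPM in the Anti-CD8 libraries, 2.10-fold the mean of all other microglia (112 CPM), with no overlap. Cd40 was 1.98-fold higher there, also without overlap. Pvr (0.675-fold) and Tnfsf9 (0.547-fold) were lower in 4 of 4 libraries, and Cd274 overlapped (149 against 127 CPM). An interferon-responsive group of endothelial cells numbered 22 and 6 cells in the IgG libraries and 6 and 5 cells in the Anti-CD8 libraries. It had Cd274 at 232 and 132 CPM (IgG) and 81.3 and 344 CPM (Anti-CD8), from 103, 14, 5 and 35 UMIs. Capillary endothelium had 20.9 to 35.0 CPM (27.9 ± 5.97, SD, n = 4), lower in 4 of 4 libraries and 7.07-fold lower by the means. Lgals9 was at 555 and 255 CPM (IgG) and 374 and 600 CPM (Anti-CD8) in the interferon group, against 136 ± 6.41 CPM in capillary cells. Galectin-9 and PD-L1 are known products of interferon-stimulated cells. Library IgG 1 held 22 of these 39 cells and the larger share of the cells of cluster 14 (460 of 708), and its part in these values was not tested.

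The promoter windows of Lgals9 and Cd274 held letters of the motif bound by interferon regulatory factors, and they are shown for that reason. Of the 10 genes, 6 (Cd274, Pdcd1lg2, Cd80, Icosl, Lgals9 and Nectin2) had an entry in the RefSeq promoter table of build GRCm38.p6. The letters GAAANNGAA were searched on both strands of the 250 bases upstream of each start site. They occurred in 2 of these 6 promoters and in 2342 of 32851 promoters in the table (7.13%). Both stretches run from 100 to 31 bases upstream of the start site, 5′ to 3′ on the strand of the gene, with the match, here on the opposite strand, in capitals. They lie at chr11:78984955-78985024 on the minus strand (Lgals9) and at chr19:29367338-29367407 on the plus strand (Cd274).
Lgals9: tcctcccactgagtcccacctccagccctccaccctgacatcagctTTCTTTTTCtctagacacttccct
Cd274: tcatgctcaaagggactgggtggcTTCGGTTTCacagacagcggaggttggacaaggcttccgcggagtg
The match began 54 bases upstream of the start of Lgals9 and 76 bases upstream of that of Cd274. A match is a description of the sequence and not a measured binding site. The letters TTCNNNGAA (7.02% of all promoters) and the kappa B motif (0.356%) were in none of the 6 windows, and TGANTCA (6.75%) was in that of Cd80.

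Dendritic cells were not uniform. Their 157 cells fell into 4 sub-clusters. Type 2 dendritic cells (67 cells, led by Cd209a, Il1r2 and Mgl2) had Tnfsf9 at 421 and 334 CPM under IgG and 312 and 282 CPM under Anti-CD8. Type 1 dendritic cells (45 cells, with Clec9a, Xcr1 and Itgae among the leading genes) had 68.6 and 0 CPM under IgG and 2.33 and 0 CPM under Anti-CD8, from 7 UMIs in all. In the IgG libraries type 1 cells numbered only 5 and 1. Cd40 showed the same split, at 164 and 116 CPM (IgG) and 143 and 85.7 CPM (Anti-CD8) in type 2 cells and 1 UMI in all type 1 cells. Cd80 was at 454 ± 52.9 CPM in type 2 cells and 111 ± 88.3 CPM in type 1 cells (SD, n = 4). Cd86 was at 1274 ± 78.4 CPM in type 2 cells and 982 ± 135 CPM in type 1 cells. A deep sub-cluster of 37 cells (median 33639 UMIs) had leading genes of both types, with Tnfsf9 at 38.8 ± 23.8 CPM. In the dendritic class 7 of 10 microglial markers were detected, summing to 785.3 to 1334 CPM, and their part in its levels was not tested. The last 8 cells, led by Ccr7, a gene of migratory dendritic cells, were absent from library IgG 2.

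**Figure D3:**
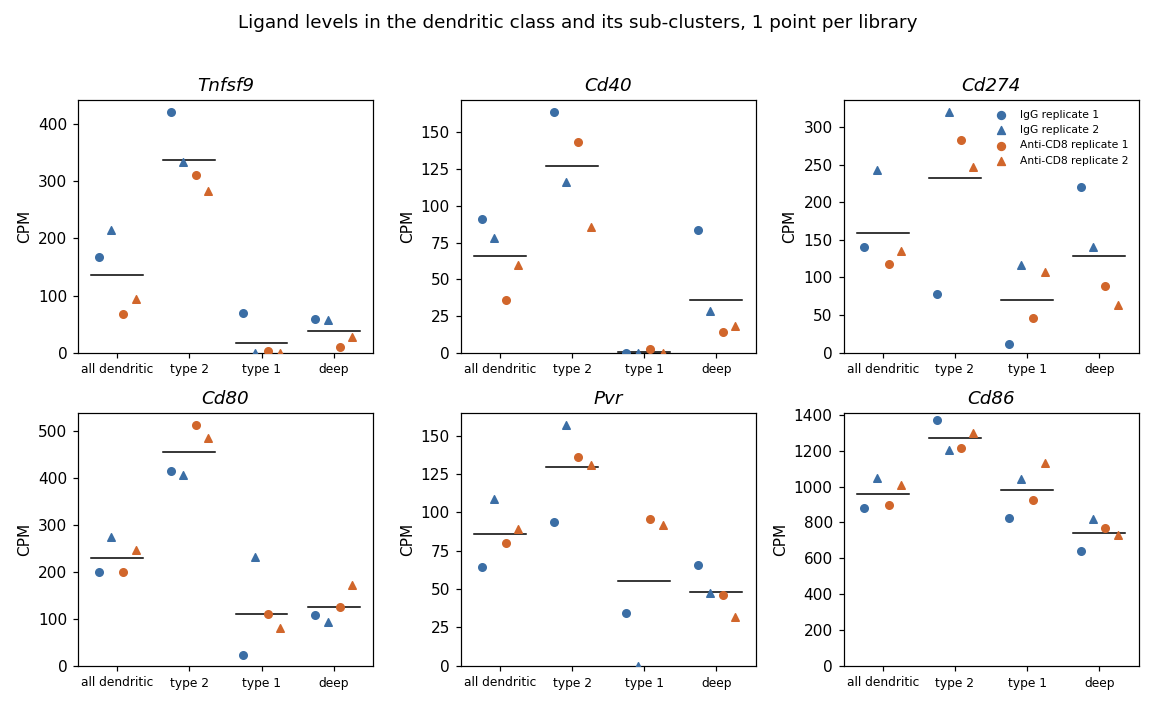
Level (CPM) of 6 genes in all dendritic cells and in their type 2, type 1 and deep sub-clusters, 1 point per library with a bar at the mean of 4. Tnfsf9 and Cd40 were at or near 0 CPM in type 1 cells other than 68.6 CPM for Tnfsf9 in IgG 1, which rests on 5 cells.

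Compared with microglia, dendritic cells as a class had more Pdcd1lg2 (13.3-fold by the means), Cd40 (3.95-fold), Cd80 (2.65-fold), Pvr (2.46-fold) and Cd86 (1.54-fold), each in 4 of 4 libraries without overlap. The dendritic Pdcd1lg2 level varied widely, from 4.78 CPM in the 20 cells of IgG 1 to 31.6 CPM in Anti-CD8 1. Nectin2 (0.177-fold) and Lgals9 (0.463-fold) were lower in 4 of 4 libraries, and Icosl, Cd274 and Tnfsf9 overlapped.

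Endothelium varied along the vessel tree for Nectin2 and Icosl. Venous cells had Nectin2 at 44.1 and 46.6 CPM in the IgG libraries and 47.7 and 36.02 CPM in the Anti-CD8 libraries. Arterial cells had 15.7 and 21.1 CPM (IgG) and 23.0 and 16.3 CPM (Anti-CD8), so venous cells were higher in 4 of 4 libraries, 2.29-fold by the means and with no overlap. Icosl was 10.4 ± 3.87 CPM in venous and 4.75 ± 0.976 CPM in arterial cells, and Pvr was 36.6 ± 1.53 and 29.6 ± 3.58 CPM, both without overlap. The arterial Icosl values rested on few UMIs, in 51 to 93 cells a library. Cd40 was higher in venous cells in 4 of 4 libraries (23.3 against 15.1 CPM) with overlapping ranges. Lgals9 ran the other way, at 124 CPM in venous and 151 CPM in arterial cells, lower in 4 of 4 libraries with overlap. Endothelium exceeded pericytes and smooth muscle 1.502-fold for Pvr and 1.44-fold for Lgals9 without overlap.

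**Figure D4:**
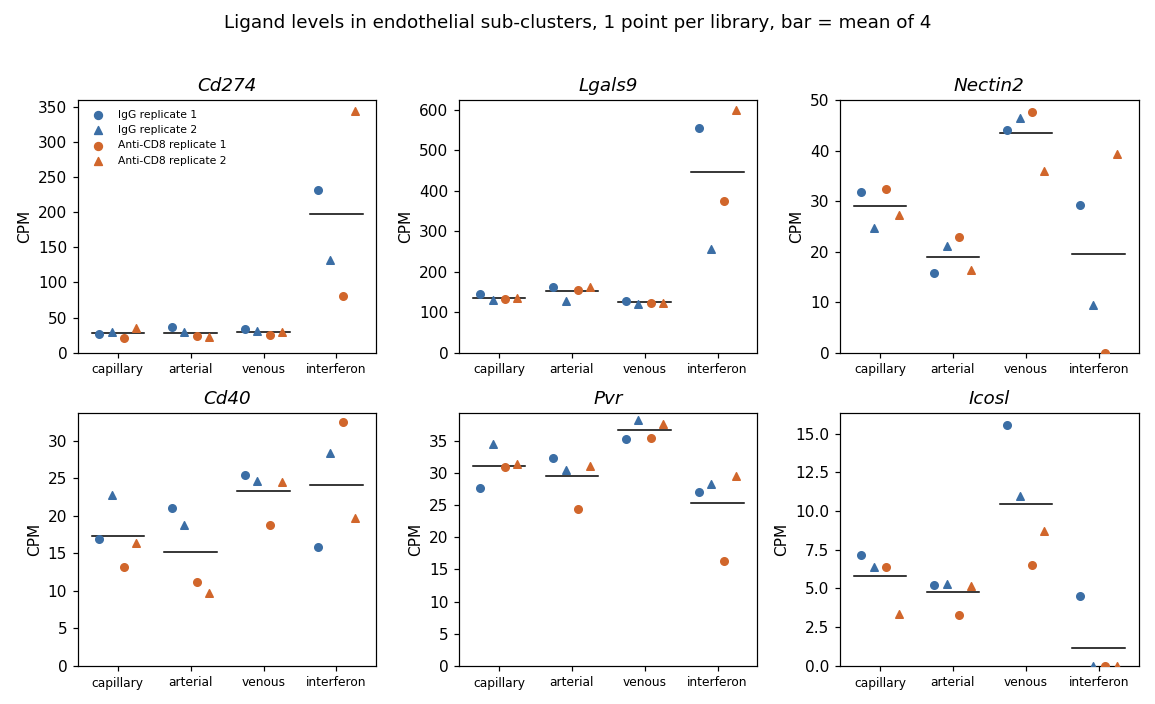
Level (CPM) of 6 genes in capillary, arterial, venous and interferon-responsive endothelial cells, 1 point per library with a bar at the mean of 4. Cd274 and Lgals9 were highest in the interferon-responsive group of 39 cells, and Nectin2 was higher in venous than in arterial cells in every library.

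Anti-CD8 libraries were then compared with IgG libraries, to see whether ligand levels in the remaining cells differed. Each class was tested by edgeR's quasi-likelihood test on UMIs summed per library and class, with Benjamini-Hochberg adjustment over all genes of a class. Of 140 pairs of a gene and a class (14 classes), 116 passed the expression filter, and 0 were called at an adjusted p under 0.05. Over all genes of these classes 0.136% of tests were called, with 0.788% in T cells, 0.715% in neurons, 0.296% in proliferating cells, 0.00804% in pericytes and smooth muscle, 0.00701% in ependymal cells and 0.0% in each of the other 9 classes. At an unadjusted p under 0.05 there were 14 pairs (12.1%, against 6.19% of all tests), and DESeq2 also called 0. In 10 microglial and Spp1-high clusters 98 pairs were tested and 0 called (0.106% of all tests, from 0.0% in clusters 2, 12 and 14 over 0.0146% in cluster 3, 0.0154% in cluster 0, 0.0486% in cluster 5, 0.0565% in cluster 4, 0.0937% in cluster 8 and 0.33% in cluster 1 to 0.475% in cluster 7), with 8 at an unadjusted p under 0.05 (8.16% against 7.33%) and 0 by DESeq2. With 2 libraries a group an exact two-sided permutation test of a single value cannot go below p = 0.33. Both Anti-CD8 libraries were above both IgG libraries for 24 of the 116 pairs and below for 16, against 17.5% of all tests in each direction, and for 17 and 14 of the 98 pairs in clusters (18.5% and 18.7% of all tests).

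Cd80 was the gene most often higher under Anti-CD8. Both Anti-CD8 libraries were above both IgG libraries in 6 of 14 classes and in 6 of 10 clusters. Over all genes this held for 17.5% of class tests and 18.5% of cluster tests. In none were both below for Cd80, against 17.5% and 18.7% of all tests. Cd80 was picked from the 10 genes by these same counts. In microglia Cd80 went from 76.5 and 81.8 CPM to 88.3 and 99.7 CPM, a log2 fold change of 0.19 (SE 0.074), which did not pass the test (edgeR adjusted p = 0.566). Without the interferon-responsive cluster the log2 fold change was 0.17 (edgeR adjusted p = 0.523). Cluster 1 had 81.9 and 85.2 CPM against 97.7 and 107 CPM (log2 fold change 0.26, SE 0.074, edgeR adjusted p = 0.207), and cluster 7 had 0.24 (edgeR adjusted p = 0.298). Leaving out library Anti-CD8 1 brought cluster 1 past the threshold (edgeR adjusted p = 0.0322), as did a fit with the replicate block (log2 fold change 0.26, edgeR adjusted p = 0.0426). Proliferating cells had a Cd80 change of 0.49 (SE 0.151, edgeR adjusted p = 0.361), beside 0.35 for Cd86 and 0.51 for Nectin2. This class also held T-cell RNA, with 9 of 10 T-cell markers detected and a sum of 235.4 and 333.5 CPM under IgG and 21.82 and 112.7 CPM under Anti-CD8. A finer clustering split off 15 proliferating cells with T-cell markers, 5 and 8 in the IgG libraries and 0 and 2 in the Anti-CD8 libraries. Neutrophil markers summed to 6394 CPM in IgG 1 and 139.4 to 225.3 CPM in the other libraries, and the part of either in these values was not tested. These classes and clusters share libraries, so their directions are not independent of each other.

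In dendritic cells Tnfsf9 was lower in both Anti-CD8 libraries, at 167 and 214 CPM under IgG and 68.2 and 93.3 CPM under Anti-CD8. The log2 fold change was -1.31 (SE 0.254, edgeR adjusted p = 0.371), which did not pass, and 0 of 6868 genes of the class passed (0.0% of tests). Over the alternative settings the log2 fold change ran from -1.52 to -1.06, and the adjusted p was as high as 0.987. It was -1.46 without library IgG 1 and -1.09 without IgG 2. Tnfsf9 passed in both of these fits, each of which leaves 1 IgG library. Among the settings that kept all libraries, it passed only with no expression filter (edgeR adjusted p = 0.000569). That setting called 91 of 17419 genes of the class. Type 1 cells, which had little Tnfsf9, made up 25.0% and 2.86% of dendritic cells in the IgG libraries and 38.8% and 37.1% in the Anti-CD8 libraries. Within type 2 cells alone the IgG libraries were at 421 and 334 CPM and the Anti-CD8 libraries at 312 and 282 CPM. The part of the mix of sub-clusters in the class-level value was not tested further.

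Cd40 and Cd274 in dendritic cells also had lower values under Anti-CD8 and did not pass. For Cd40 the log2 fold change was -0.89 (SE 0.305, edgeR adjusted p = 0.703). Without library Anti-CD8 1 it was -0.50. Type 1 cells, in which Cd40 was nearly absent, differed in share between the libraries as given above. Within type 2 cells the Cd40 ranges of the 2 groups overlapped, and the part of the mix in the class value was not tested. For Cd274 the log2 fold change was -0.67 (SE 0.280, edgeR adjusted p = 0.808), and this value depended on library IgG 2, without which it was -0.18. Without IgG 1 it was -0.98 and passed the threshold (edgeR adjusted p = 0.0278). Of the 9 genes tested in dendritic cells, 3 had both Anti-CD8 libraries below both IgG libraries and 0 above, against 18.0% and 17.8% of all genes of the class. Endothelial Cd40 had a log2 fold change of -0.43 (SE 0.150, edgeR adjusted p = 0.964), with both Anti-CD8 libraries below both IgG libraries.

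**Figure D5:**
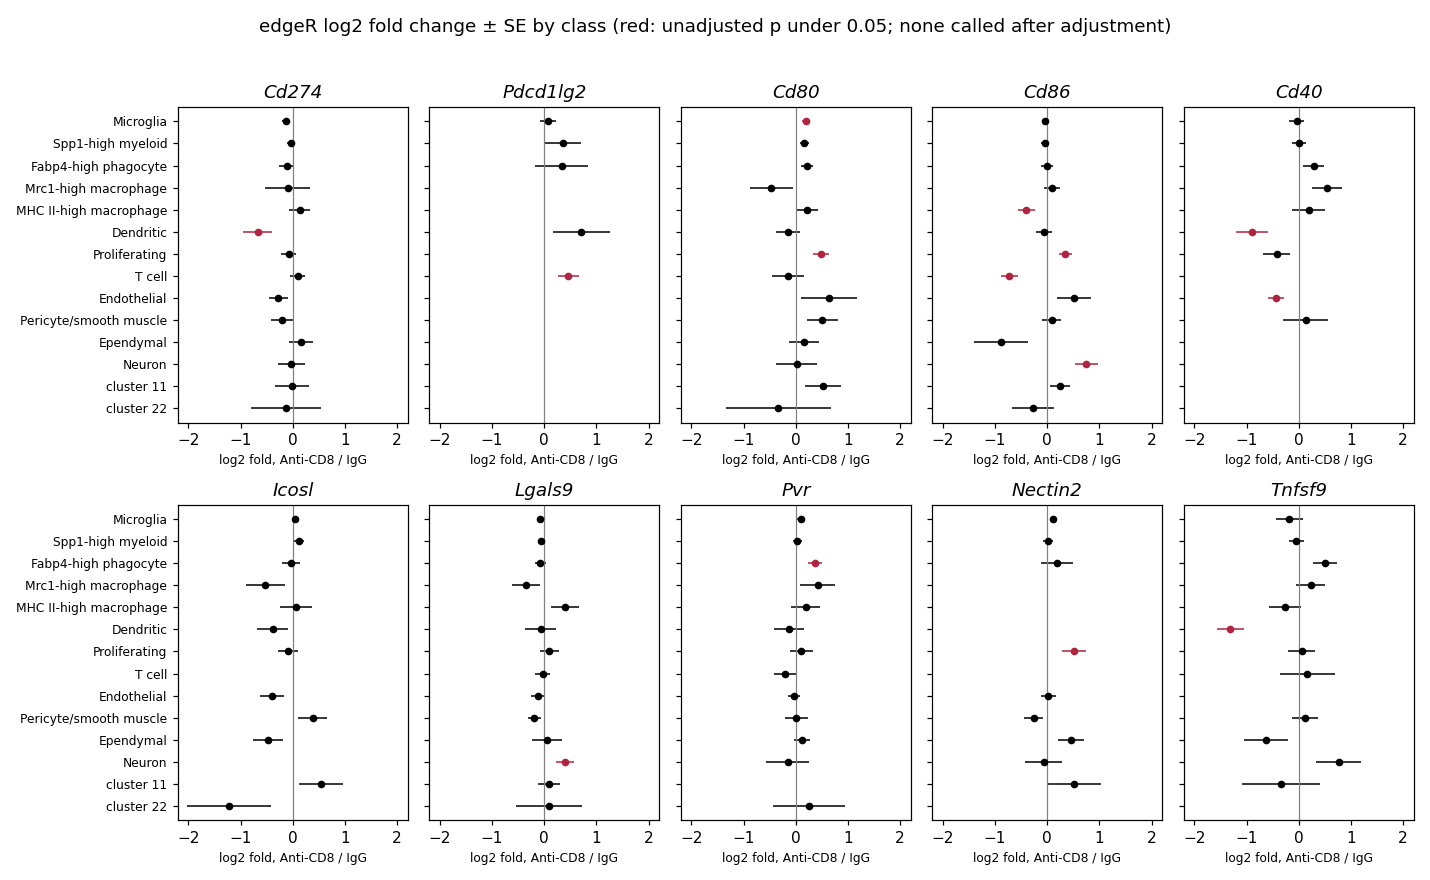
Log2 fold change of Anti-CD8 over IgG with its SE (edgeR) for each gene in each tested class, red where the unadjusted p was under 0.05. The lowest of the red values was Tnfsf9 in dendritic cells at -1.31, and 0 of the 116 pairs passed after adjustment.

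In T cells Cd86 had the smallest adjusted p of the 116 pairs. The class had 52.1 and 49.6 CPM in the IgG libraries and 33.1 and 29.0 CPM in the Anti-CD8 libraries, with a log2 fold change of -0.73 (SE 0.164, edgeR adjusted p = 0.0903). The value passed without library IgG 2 (adjusted p = 0.0386) and with no expression filter (0.00932), and it turned to 0.26 (adjusted p = 0.613) when doublets were not removed. Cells with a CD8 UMI had Cd86 at 56.8 and 55.1 CPM (IgG) and 49.2 and 30.8 CPM (Anti-CD8), above those without in every library (25.1 and 33.4 CPM, and 20.3 and 27.8 CPM). A second T-cell cluster, with Trdc and Il17a among its leading genes, was at 8.19 ± 5.66 CPM and held 21 and 70 cells under IgG and 107 and 65 under Anti-CD8. In the larger cluster alone the change was -0.54 (edgeR adjusted p = 0.386). Microglial markers summed to 132.1 and 112.2 CPM (IgG) and 129.7 and 189.8 CPM (Anti-CD8) in the T-cell class, with 2 of 10 detected, and their part in the value was not tested. Pdcd1lg2 had a log2 fold change of 0.46 in T cells (SE 0.202, edgeR adjusted p = 0.415), and without library Anti-CD8 1 it was 0.11.

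Among the other pairs with an unadjusted p under 0.05 were Pvr in Fabp4-high phagocytes (log2 fold change 0.37, edgeR adjusted p = 0.965) and Cd86 in MHC II-high macrophages (-0.40, adjusted p = 0.999). In neurons they were Cd86 (0.75, edgeR adjusted p = 0.200) and Lgals9 (0.40, adjusted p = 0.475). Neuronal Cd86 was at 20.1 and 28.5 CPM under IgG and 47.7 and 37.2 CPM under Anti-CD8, and it passed without library IgG 2 (edgeR adjusted p = 0.0490) and with no expression filter (0.0373). Microglial markers in the neuron class moved with it, summing to 176.6 and 196.4 CPM (IgG) and 306.2 and 406.5 CPM (Anti-CD8), with 5 of 10 detected, and their part was not tested. Ependymal Cd86, at 11.6 and 49.1 CPM under IgG and 22.2 and 8.29 CPM under Anti-CD8, rested on library IgG 2. Its log2 fold change of -0.89 turned to 0.40 without that library and was -1.57 without IgG 1 (edgeR adjusted p = 2.47e-09), and it was called with no expression filter (adjusted p = 0.00902), while the adjusted p with all 4 libraries was 1.00.

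Single clusters of microglia gave 1 further large value. In interferon-responsive cluster 14 Tnfsf9 was at 58.8 and 66.0 CPM under IgG and 30.9 and 38.3 CPM under Anti-CD8 (log2 fold change -0.83, SE 0.188, edgeR adjusted p = 1.00). It passed with no expression filter (adjusted p = 0.0421). The cluster held 460 and 80 cells under IgG and 58 and 110 cells under Anti-CD8. In cluster 7 Tnfsf9 had -0.22 (edgeR adjusted p = 0.695), was called without library IgG 1 (-0.48, adjusted p = 0.00820) and without Anti-CD8 2 (-0.39, adjusted p = 0.0409), and turned to 0.11 without IgG 2. The other pairs in clusters with an unadjusted p under 0.05 had log2 fold changes between -0.19 (Cd274 in cluster 5) and 0.77 (Pdcd1lg2 in cluster 3, at 0.763 to 1.499 CPM).

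Receptors of the ligands and the signalling genes downstream of CD40 and interferon-gamma were followed in 4 lists. In microglia, Spp1-high cells, both macrophage classes, dendritic cells and endothelium 0 genes of the lists were called by edgeR. At an unadjusted p under 0.05, microglia had 1 of 8 receptors tested, 4 of 18 other ligands, 2 of 16 genes of the CD40 list and 3 of 16 of the interferon-gamma list, beside 8.72% of all genes. In the same order, Spp1-high cells had 1 of 7, 3 of 18, 1 of 16 and 6 of 16 (7.15% of all genes), and MHC II-high macrophages had 0 of 2, 0 of 10, 2 of 16 and 4 of 11 (4.69%). Mrc1-high macrophages had 0 of 2, 0 of 9, 2 of 15 and 1 of 12 (4.14%), endothelium had 0 of 4, 0 of 13, 2 of 16 and 1 of 14 (4.77%), and dendritic cells had 1 of 3, 1 of 11, 3 of 16 and 1 of 12 (6.07%). In dendritic cells, 3 of 12 receptors, 11 of 24 other ligands, 16 of 16 genes of the CD40 to NF-kB list and 12 of 16 genes of interferon-gamma signalling were tested, with medians of 0.48, -0.31, -0.02 and -0.08 beside -0.01 for all genes. Among them Icam1, an adhesion ligand of T cells, had -1.18 (edgeR adjusted p = 0.371), Socs3 -0.80 and Relb, a subunit of NF-kB, -0.66, while Map3k14, the kinase NIK, had 0.82. None passed. In microglia the medians of the lists lay between -0.09 and 0.09. Lgals1 (log2 fold change -0.49) and Traf1 (0.38) were among the genes of smallest p there. In microglial cluster 7, 2 of 15 other ligands were called lower, Tnfsf8 and Lgals1 (smallest edgeR adjusted p = 0.0169). None was called higher, and 0.475% of all tests in the cluster were called. In endothelium Cxcl10, an interferon-induced chemokine, was at 181 CPM in IgG 1 and 14.2 to 27.0 CPM in the other libraries (log2 fold change -2.16, edgeR adjusted p = 1.00). In MHC II-high macrophages Cxcl10 was at 29.6 and 91.7 CPM under IgG and 7.16 and 20.3 CPM under Anti-CD8 (-2.2045, edgeR adjusted p = 0.361).

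Over the cell classes the lists had 7 calls, in T cells and neurons, where 0.788% and 0.715% of all tests were called. These 7 calls became 1 with no doublet removal and 2 with the larger T-cell cluster in place of all T cells. In T cells the receptor Icos, which binds the product of Icosl, rose from 452.5 and 498 CPM under IgG to 884 and 849.65 CPM under Anti-CD8 (log2 fold change 0.84, SE 0.101, edgeR adjusted p = 0.00946), 1 of 12 receptors tested. Of 16 genes of the CD40 to NF-kB list, 3 were called higher: Nfkb1 by 0.84, its inhibitor Nfkbia by 1.02 and the survival gene Bcl2a1b by 0.62 on the log2 scale. The median of that list was 0.47, against -0.01 over all genes tested. Of the interferon-gamma list Ifngr2 rose by 0.97. In the larger T-cell cluster alone the change of Icos was 0.51 and did not pass (edgeR adjusted p = 0.187). The CD8-positive share of the class differed between the groups as given above. The second T-cell cluster also differed, with 21 of 328 and 70 of 703 cells (IgG) and 107 of 417 and 65 of 258 (Anti-CD8). The part of either in these changes was not tested further. In neurons Cd44 rose by 0.93 and Bcl2a1b by 1.27, beside the higher microglial markers.

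The genes whose levels over the 15 classes were most like each ligand are given as a description, over 14825 genes and with Pearson's r of log2(CPM + 1), since the classes share libraries. Cd80 was most like Cd86 (r = 0.970), Wdfy4 (0.953) and Csf2rb (0.948). Cd86 was most like Nlrp1b and Ptafr (0.979 each) and Cybb (0.971). For Pdcd1lg2 the leading gene was Il18rap (0.977), a subunit of the interleukin-18 receptor. Tnfsf9 was closest to Cass4 (0.930), Slamf8 (0.928) and Nlrp3 (0.924), and Cd40 to Sgk3 (0.939). For Icosl it was Itga5 (0.921), for Cd274 Baz1a (0.946), for Lgals9 Tgfb1 (0.891), for Nectin2 Creb3 (0.927) and for Pvr Gm37420 (0.882).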

How the data were processed

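Single cells of injured spinal cord were measured in 4 droplet 3′ RNA libraries, 2 per group. The authors deposited raw UMI counts per gene and barcode, made with Cell Ranger 7.1.0 on GRCm39 per the submitters' processing notes. Barcodes under 300 genes or over 20% mitochondrial UMIs were dropped, doublets were removed with Scrublet, and cells were clustered with scanpy 1.11.5 (3000 variable genes, 30 components, 15 neighbours, Leiden resolution 1) without the 10 genes. Clusters were named from fixed marker lists, with score thresholds set after seeing the data. UMIs were summed per library and class (at least 20 cells in each library), and Anti-CD8 was compared with IgG by edgeR 4.0.16 (TMM, quasi-likelihood test, filterByExpr), adjusted over all genes of a class and called at an adjusted p under 0.05. DESeq2 1.42.0 and other settings were alternatives. CPM levels use the UMI total of the class, and overlap of groups uses TMM-scaled CPM. The edgeR step was tested on simulated data. Library depth is given in the report, and exact intervals cover counting error only. The members and lists were chosen with earlier results of these data known. Named were all 10 members, and of each list the called genes and examples from the 3 with the smallest p per class; 1 gene of the lists is not reported here. Replicate numbers were not used as pairs in the main fit, and the labels do not say whether they mark shared handling.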

Additional observations from a re-analysis of the deposited data

How the results depend on the processing

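Settings changed 1 at a time were other scalings, no expression filter, DESeq2, a replicate block, leaving out each library, no doublet removal, a stricter cell filter and a finer clustering. The finer clustering named no MHC II-high macrophage class. Mrc1-high macrophages then held 63 to 171 cells a library, against 28 to 53. Spp1-high cells held 512 to 561, against 962 to 1242. Levels by class were not recomputed with these boundaries. The 33 single results followed gave 396 values, of which 354 kept direction and side of the threshold, 24 no longer passed, 15 newly passed and 3 reversed. Reversed were Cd86 in ependymal cells without IgG 2 (0.40), Cd86 in T cells with no doublet removal (0.26) and Tnfsf9 in cluster 7 without IgG 2 (0.11), and the cause was not tested. Leaving out each library in turn, they ran from -1.84 to 0.40, with no reversal for T cells, and from -0.48 to 0.11. Of pairs of the 10 genes and classes, 0 were called, against 4 with no expression filter and 0 to 3 leaving out 1 library. In clusters it was 0, against 1 with no filter, 1 with a replicate block and 0 to 1 leaving out 1 library. The pathway lists had 7 calls, against 13 with DESeq2, 2 in the largest T-cell cluster alone (an alternative chosen after seeing the data), 1 with no doublet removal, 50 with no expression filter, 23 with a replicate block and 12 to 44 leaving out 1 library, where a lone library is assumed to vary like the other group. Over all genes and classes 214 calls became 435 with DESeq2, 892 with the replicate block, 2778 with no filter and 52 with no doublet removal, and in clusters 135 became 204, 710, 1675 and 92. Correlations of same-numbered libraries ran from -0.036 to 0.288 over classes. With 2 pairs this cannot decide whether same-numbered libraries share a batch. Thinning to 5000 UMIs gave shares of 38.82% (Cd274, dendritic), 36.17% (Pdcd1lg2, NK), 57.24% (Cd80, dendritic), 92.95% (Cd86, Mrc1-high), 27.56% (Cd40, Mrc1-high), 19.74% (Icosl, dendritic), 42.55% (Lgals9, NK), 38.16% (Pvr, dendritic), 15.28% (Nectin2, microglia) and 41.67% (Tnfsf9, Mrc1-high). Depth limits Pdcd1lg2 in microglia and all values of dendritic sub-clusters.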
